A study of Mus musculus with 8 samples.

Results

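Elastic fibres give tissue its recoil, and 10 genes of their microfibril scaffold and its partners are described here in fibrotic mouse liver: Fbn1, Fbln1, Fbln2, Fbln5, Mfap2, Mfap4, Mfap5, Emilin1, Ltbp1 and Efemp2. They were taken by the gene name that the array files give each probe, and a probe was kept where it was well above background on at least 4 of 8 arrays. Of the 10 genes 9 were measured, with 11 of their 15 probes, among 18535 features measured in all. Mfap5 was the exception, since its probe was well above background on 0 of 8 arrays (signals of 3.19 to 18.8).

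Male mice had liver fibrosis induced for 5 weeks with CCl4 (carbon tetrachloride, a toxin activated in hepatocytes) or with TAA (short for thioacetamide, which is likewise toxic to hepatocytes; the labels do not spell it out). They were then followed for 1 or 2 weeks, in which a negative control nucleotide (NC) or miR-29a was given at intervals of 3 days. Whole liver RNA of each of the 8 combinations went onto 1 one-colour array, so that every combination is a group of 1 sample without a replicate, and a liver without induced fibrosis was not analysed here. The labels name neither the strain or age of the mice, nor how the toxins were given, nor whether RNA came from a single animal or from pooled livers. Below, a liver stands for the sample on 1 array. P-values therefore measure only the spread between these samples, which may be technical. Where a model leaves out a dependence of 1 factor on another, that spread holds it too. In whole liver, fewer cells of a type and less RNA per cell cannot be told apart.

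A microfibril is a beaded filament of fibrillin, onto which elastin is laid down during the assembly of an elastic fibre. Fibulins and EMILIN bind both, microfibril-associated proteins sit along the filament, and latent TGF-beta binding proteins tether the inactive growth factor to it. In the liver these genes are expressed by portal fibroblasts, stellate cells and vessel walls, and elastic fibres build up in scar septa as fibrosis advances. The miR-29 family is known for repressing matrix messenger RNAs, among them collagens, elastin and fibrillin 1.

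The injected oligonucleotide belongs to a family whose members share bases 2 to 8, the seed with which a microRNA pairs to its targets. The 3 mature mouse sequences of RefSeq, build GRCm38.p6, are shown 5′ to 3′ with the seed in capitals, because the study's intervention rests on that seed. The labels give neither the chemistry of the injected oligonucleotide nor its exact sequence.
mmu-miR-29a-3p: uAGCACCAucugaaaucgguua
mmu-miR-29b-3p: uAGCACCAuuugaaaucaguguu
mmu-miR-29c-3p: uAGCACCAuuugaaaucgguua
The letters that pair with the whole seed, TGGTGCT, were searched in the probes themselves, on the strand the array files print. They lay in 310 of 55681 probes (0.557%) and in 1 of the 15 probes of these genes, that of Mfap5. A shorter match that pairs with bases 3 to 8, TGGTGC, lay in 757 probes (1.36%) and in 2 of the 15, those of Fbn1 and Mfap5. A probe covers only 60 bases of its transcript, and the remaining transcript was not searched.

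On each array between 43.9% and 48.4% of the 59305 non-control spots were well above background, and 0 were saturated. The 75th percentile of an array's processed signals was 136 to 219. The number of arrays limits the precision of every difference below. Levels are log2 processed signals minus the 75th percentile of their array, so that a level of 0 equals that percentile. All arrays lay on 1 slide, with the CCl4 arrays in its first row and the TAA arrays in the next. Slide position and agent therefore cannot be told apart. The TAA 1-week NC array stood apart in neutrophil genes, whose summed signal was 318 there and 3.45 to 7.61 on the other 7 arrays (4 of 7 markers measured, with the 75th percentile of an array as 1). Markers of Kupffer cells and macrophages summed to 213 on that array and to 30.5 to 58.9 on the other 7 (8 of 8 markers measured). The CCl4 1-week NC array stood apart in markers of mesothelium, the cell layer of the liver capsule, with a summed signal of 19.5 against 2.04 to 6.83 on the other 7 arrays (7 of 10 markers measured).

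The range of a level from the lowest to the highest array had a median of 1.42 log2 over the 9 genes and of 0.93 over all features. Fbln1 had the widest measured range, 2.96, whose low end was not well above background and bounds it at 4.19-fold or more. That place was lost with the mean of its probes (1.26, against 1.73 for Mfap4) and with normexp background correction (0.39, against 1.28 for Fbln5). Efemp2 had the narrowest range, 0.56 (1.47-fold), except with normexp, where it had 0.53 and Fbln1 and Emilin1 had 0.39 and 0.42. The scanner's own error of a spot, which holds no variation between livers, had medians of 0.14 to 0.21 log2 in these genes.

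**Figure D1:**
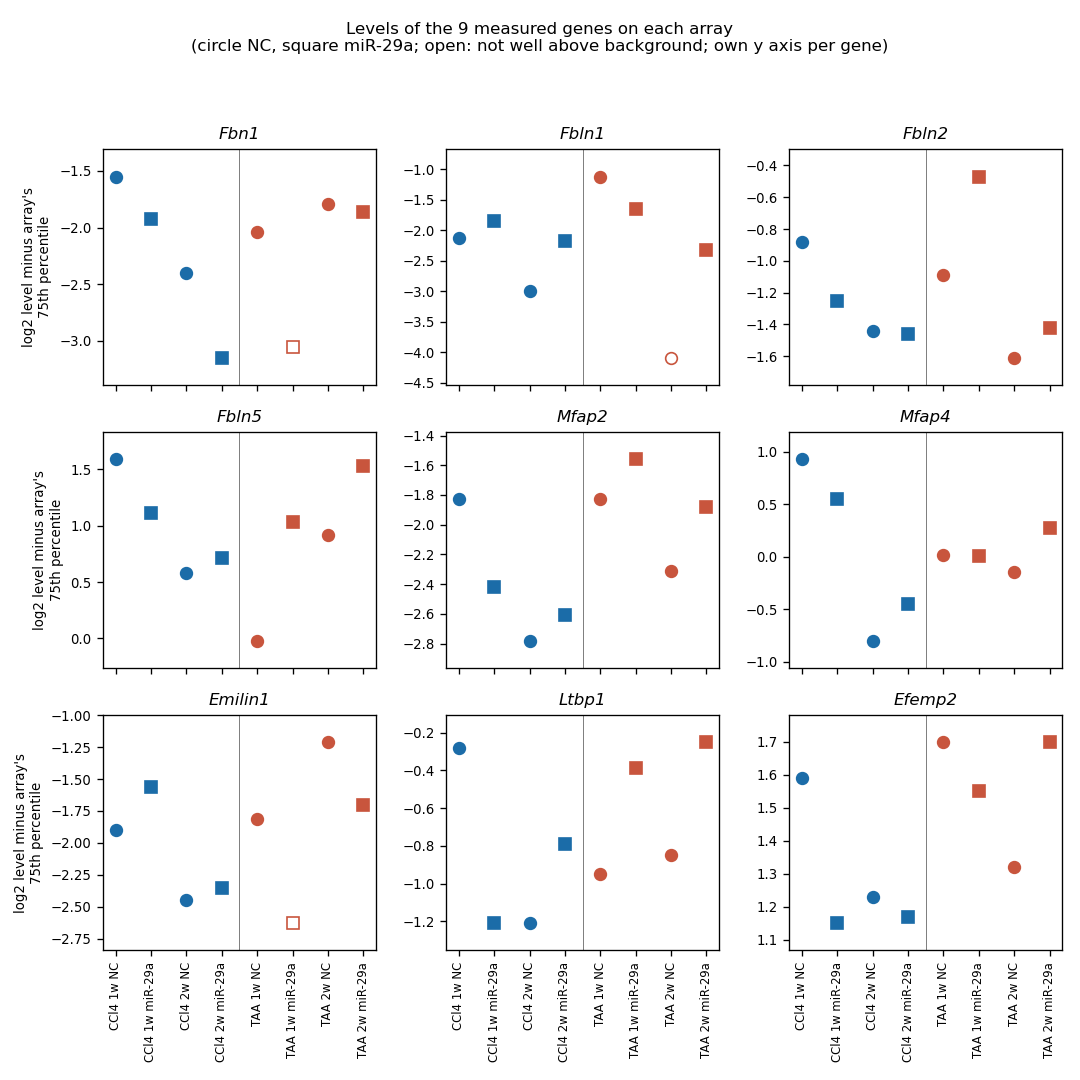
Log2 level (signal minus the array's 75th percentile, own axis in each panel) of the 9 measured genes on each of the 8 arrays, CCl4 in blue and TAA in red, circles for NC and squares for miR-29a. Open symbols mark the 3 values that were not well above background. Fbn1, Fbln5 and Mfap4 were highest on the CCl4 1-week NC array, whereas Fbln1 and Efemp2 were highest on the TAA 1-week NC array.

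Fbn1 encodes fibrillin 1, the backbone of the microfibril, and was the only measured gene of the set to pass the test of whether the difference between weeks depended on the agent. After CCl4 its levels were −1.55 (NC) and −1.92 (miR-29a) at 1 week, then −2.40 and −3.15 at 2 weeks. After TAA they were −2.04 and −3.05 at 1 week, then −1.79 and −1.86 at 2 weeks. Both CCl4 livers of 2 weeks thus lay below both of 1 week, and both TAA livers of 2 weeks lay above both of 1 week. The TAA 1-week miR-29a signal was not well above background.

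For Fbn1 the difference between weeks was −1.04 ± 0.25 (SE of the fit, 8 arrays) under CCl4 and 0.72 ± 0.25 under TAA. The agent by week interaction, the TAA difference minus the CCl4 difference, was 1.76 ± 0.35 log2 in limma (adjusted p = 0.0431). Neither difference within an agent was called (adjusted p = 0.122 and 0.147). The interaction kept its sign under every alternative in which Fbn1 was tested, from 0.45 to 2.17, but its call was lost under 10 of them. Without the TAA 1-week NC array the Fbn1 call remained (2.07, adjusted p = 0.0351). Without any other single array it ended, at values from 1.44 to 2.08 and adjusted p from 0.0569 (TAA 1-week miR-29a array left out) to 0.160 (CCl4 2-week miR-29a array left out). It also ended with normexp background correction (0.45), with no filter on dim probes (1.76) and with the oligonucleotide left out of the model (1.76).

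The set's median in that interaction was 0.37 beside 0.06 over all features, and it ran from −0.20 without the CCl4 1-week NC array to 1.07 without the CCl4 1-week miR-29a array. Of the whole set 1 of 9 genes (11.1%) was called in it, where limma called 9.84% of all 18535 features (1027 with a positive and 796 with a negative value). The share among these genes was close to the background and is no result about the set. Scaling by each array's median moved the median of all features by 0.41 in the interaction and −0.39 in TAA minus CCl4. Under it 84.3% of the interaction calls were positive, against 56.3% here. Fbn1, Mfap4, Fbln5 and Emilin1 were then called, at 2.17, 1.81, 1.82 and 1.85, before that shift is taken off. Beside these 4 of 9 genes, 3447 of all 18535 features were called under that scaling.

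The microfibril-associated proteins behaved less alike. Mfap4, which encodes a fibrinogen-domain glycoprotein that binds microfibrils, had levels of 0.93 and 0.55 after CCl4 at 1 week (NC and miR-29a) and of −0.80 and −0.45 at 2 weeks. After TAA its levels were 0.02 and 0.01 at 1 week and −0.15 and 0.27 at 2 weeks. The CCl4 livers of 1 week lay above the other 6, and those of 2 weeks lay lowest.

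The difference of Mfap4 between weeks was −1.36 ± 0.23 under CCl4 (limma, adjusted p = 0.0661) and 0.04 ± 0.23 under TAA (adjusted p = 0.917). Its interaction was 1.41 ± 0.32, just outside the threshold (adjusted p = 0.0541; 0.0179 to 0.204 over the alternatives). It was called with normexp background correction (1.04), array median scaling (1.81), a floor under dim signals (1.41), only features bright on all arrays (1.41) or the oligonucleotide left out of the model (1.41).

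Mfap2 encodes a small microfibril glycoprotein, also known as MAGP1, that binds fibrillin and TGF-beta family growth factors. Its levels after CCl4 were −1.83 and −2.42 at 1 week and −2.78 and −2.61 at 2 weeks, and after TAA −1.83 and −1.56, then −2.31 and −1.88. The 2-week value was the lower in 4 of 4 matched pairs, with a mean difference of −0.48 ± 0.19 that was not called in limma (unadjusted p = 0.0409, adjusted p = 0.872). The share of all features that go 1 way in 4 of 4 pairs was not counted, for this gene or for those below. TAA exceeded CCl4 by 0.52 ± 0.19 (adjusted p = 0.148), although the 1-week NC livers were equal to 2 decimals. Another Mfap2 probe gave −0.11 ± 0.21 between weeks and −0.62 ± 0.32 for the interaction, against 0.17 ± 0.38 for the brightest probe.

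The fibulins bridge elastin and microfibrils, and here they followed separate courses. Fbln5, which encodes the fibulin that brings elastin and its cross-linking enzyme to the fibre, had levels of 1.59 and 1.11 (CCl4, 1 week) and 0.58 and 0.71 (CCl4, 2 weeks). After TAA the levels were −0.02 and 1.03 at 1 week and 0.92 and 1.53 at 2 weeks. The TAA 1-week NC liver was lowest of all 8, whereas its miR-29a partner lay within the range of the others.

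The Fbln5 difference between weeks was −0.70 ± 0.37 under CCl4 and 0.71 ± 0.37 under TAA, opposite in sign in 2 of 2 pairs each. Its interaction of 1.42 ± 0.52 was not called (limma, adjusted p = 0.141) and was 0.93 without the TAA 1-week NC array and 0.88 without the CCl4 1-week NC array. Fbln5 and Fbn1 thus had differences of the same signs in the pairs of both agents.

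The bases before the annotated start of these genes are shown as examples of genes whose differences between weeks had these signs. Emilin1 had them too, but its window lies inside the gene's annotated span and is not printed. They are RefSeq sequence of GRCm38.p6, without any base inside the gene's own annotated span. The stretch lies at chr2:125506486-125506688 for Fbn1 and at chr12:101819120-101819369 for the upstream start of Fbln5, both on the minus strand. Capitals mark the letters of a GC box, GGGCGG, read on either strand.
Fbn1: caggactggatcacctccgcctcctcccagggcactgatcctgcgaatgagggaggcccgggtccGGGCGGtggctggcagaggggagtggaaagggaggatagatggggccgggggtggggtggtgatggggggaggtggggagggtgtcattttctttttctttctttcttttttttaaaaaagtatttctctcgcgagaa
Fbln5: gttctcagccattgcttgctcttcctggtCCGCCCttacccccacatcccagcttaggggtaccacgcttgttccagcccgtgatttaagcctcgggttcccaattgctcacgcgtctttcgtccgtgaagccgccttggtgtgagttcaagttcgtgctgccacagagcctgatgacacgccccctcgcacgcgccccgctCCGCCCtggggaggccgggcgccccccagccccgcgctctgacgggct
In the 250 bases before the start there was 1 such match for Fbn1, there were 2 for this start of Fbln5, and there were 0 for the other start of Fbln5 and for Emilin1. A GC box was present in 32.7% of 32851 RefSeq windows of that length. The TATA letters, TATAAA, were in 12.4% of the windows and in 0 of these 4. The Smad-binding letters, CAGAC, were in 42.2% of the windows, with 0 matches in the printed sequences and 2 each for the other start of Fbln5 and for Emilin1. Motifs were read on both strands, with overlapping matches counted separately. The G and C share was 59.2% for Fbn1 and 65.2% and 49.6% for the starts of Fbln5 (printed and other) and 63.2% for Emilin1, against a median of 52.4%. The table held 8 of the 10 genes, without Mfap4 and Mfap5, and a match is a description of letters.

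Fbln1 encodes a fibulin found in the matrix around vessels and in blood plasma. Its levels were −2.13 and −1.84 after CCl4 at 1 week, −2.99 and −2.18 at 2 weeks, −1.12 and −1.65 after TAA at 1 week, and −4.09 and −2.32 at 2 weeks. The TAA 2-week NC signal was not well above background, so the brightest Fbln1 probe was at least 4.19-fold lower there than in the NC liver of 1 week. That bound sets the dim array at the lowest signal called well above background on it. The other kept Fbln1 probe went the other way in this pair, from −2.66 at 1 week to −2.21 at 2 weeks, well above background on both arrays.

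The 2-week level of Fbln1 was the lower in 4 of 4 pairs, with a mean of −1.21 ± 0.42 (unadjusted p = 0.0256) that was not called in limma (adjusted p = 0.872). The other Fbln1 probe that was kept lies nearer the start of the gene and gave −0.08 ± 0.24 for the same comparison. The interaction also differed in sign, at −1.22 ± 0.74 for the brightest probe and 0.65 ± 0.40 for the other. Fibulin 1 is made as splice variants, and which of them each probe detects was not determined, so the Fbln1 difference holds for 1 probe.

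**Figure D2:**
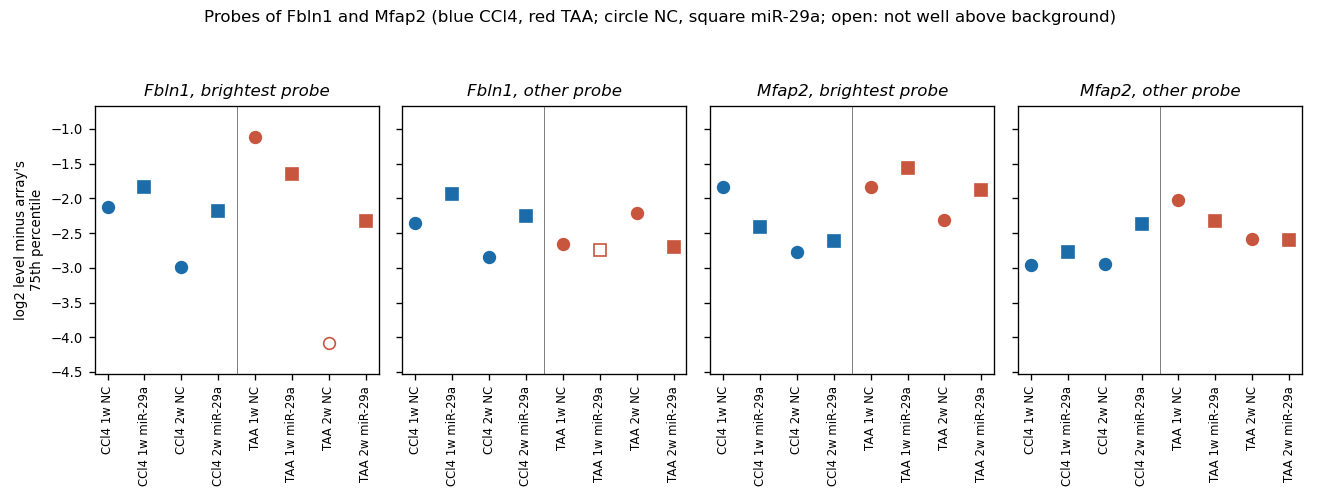
Log2 level (signal minus the array's 75th percentile, shared axis) of the 2 kept probes of Fbln1 and the 2 of Mfap2 on each array, CCl4 in blue and TAA in red, circles for NC and squares for miR-29a, open where not well above background. The brightest Fbln1 probe ran from −4.09 (an open symbol) to −1.12, while the other ran from −2.85 to −1.94.

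Fbln2, the fibulin of basement membranes and elastic fibre margins, had levels of −0.88 and −1.25 after CCl4 at 1 week and −1.44 and −1.46 at 2 weeks. After TAA its levels were −1.09 and −0.47, then −1.61 and −1.42. All 4 livers of 2 weeks lay below all 4 of 1 week, and the mean difference was −0.56 ± 0.19. It was not called in limma (unadjusted p = 0.0226, adjusted p = 0.872), in a comparison where 0% of features were called.

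Efemp2 encodes fibulin 4, which fibrillar collagen and elastin cross-linking need. Its levels were 1.59, 1.15, 1.23 and 1.17 after CCl4 (1-week NC and miR-29a, then 2-week NC and miR-29a) and 1.70, 1.55, 1.32 and 1.70 after TAA. TAA was the higher in 4 of 4 pairs, by 0.28 ± 0.16 (limma, adjusted p = 0.257). Under array median scaling that difference was −0.11.

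Emilin1 encodes a glycoprotein at the interface of elastin and microfibrils that restrains TGF-beta processing. Its levels were −1.90 and −1.56 after CCl4 at 1 week, −2.45 and −2.35 at 2 weeks, −1.81 and −2.63 after TAA at 1 week, and −1.21 and −1.70 at 2 weeks. As for Fbn1, both CCl4 livers of 2 weeks lay below those of 1 week, and both TAA livers of 2 weeks lay above them. The TAA 1-week miR-29a signal was not well above background here either.

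The difference of Emilin1 between weeks was −0.67 ± 0.30 under CCl4 and 0.77 ± 0.30 under TAA, with an interaction of 1.44 ± 0.43 (limma, adjusted p = 0.0940). Its probe joins sequence over 457 genomic bases and so crosses a splice junction. At 2 weeks Emilin1 was 0.95 ± 0.30 higher and Fbn1 0.95 ± 0.25 higher with TAA than with CCl4, each in 2 of 2 pairs, and neither was called (adjusted p = 0.438 for both).

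Ltbp1 encodes a latent TGF-beta binding protein, which anchors the stored growth factor to microfibrils. Its levels were −0.28, −1.21, −1.21 and −0.79 after CCl4 and −0.95, −0.39, −0.85 and −0.25 after TAA, in the order used for Efemp2. The CCl4 1-week NC liver and both TAA miR-29a livers were high, at −0.39 or above, and the other 5 lay at −0.79 or below. The interaction was 0.37 ± 0.57 and turned to −0.36 without the CCl4 1-week NC array.

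Under CCl4 all 9 genes were lower at 2 weeks than at 1 week in the fit, with a median of −0.60 beside −0.03 over all features. Limma called 0 of the 9 genes and 1.08% of features, with 2 of the genes and 18.5% of features at an unadjusted p under 0.05. In the single pairs 9 of 9 were lower between the NC livers (median −0.86) and 7 of 9 between the miR-29a livers (median −0.34), while 53.0% and 54.1% of all features were lower. All measured genes stayed below 0 under each scaling, background correction and filter tried. Of the 9 genes 1 was called with normexp and 1 with array median scaling, under which 265 and 308 features were called. Without the CCl4 1-week NC array, the one rich in mesothelial markers, 7 of 9 were below 0 and the median was −0.17.

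Under TAA 5 genes were higher and 4 lower at 2 weeks, with a median of 0.04 that equalled that of all features, and limma called 0 of 9 genes and 0% of features (4 genes and 4997 features at an unadjusted p under 0.05). In the NC pair 4 of 9 were higher and in the miR-29a pair 6 of 9. Fbn1, Emilin1, Fbln5 and Ltbp1 lay above 0 in both TAA pairs, while Fbln1, Fbln2 and Mfap2 lay below 0 in both. In the additive comparison of the weeks over both agents the median was −0.16, and limma called 0 genes and 0 features (3 and 961 at an unadjusted p under 0.05).

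**Figure D3:**
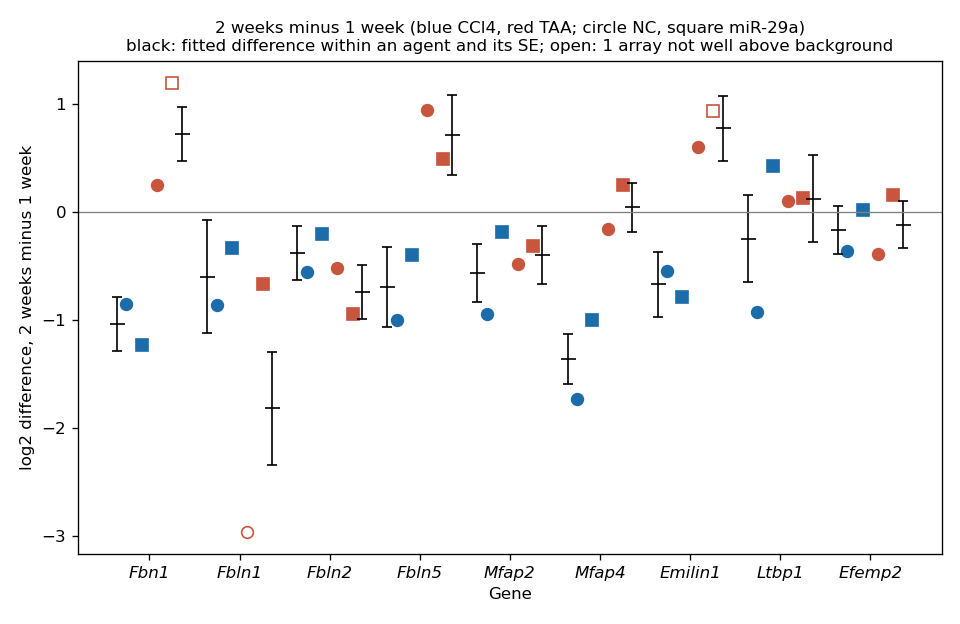
Log2 difference between 2 weeks and 1 week for each gene in the 4 matched pairs, CCl4 in blue and TAA in red, circles for NC and squares for miR-29a, open where 1 array was not well above background. Black bars give the fitted difference within each agent and its SE (CCl4 left, TAA right). All 9 CCl4 estimates lie below 0, while the TAA estimates lie between −1.82 (Fbln1) and 0.77 (Emilin1).

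TAA and CCl4 livers were also compared directly. In the additive model limma called 0 of 9 genes and 0% of features, with 1 gene and 5323 features at an unadjusted p under 0.05 and a median of 0.11 for these genes beside −0.13. The spread in that model holds any dependence of the agent difference on the week. With an agent by week term added, 5029 features were called and still 0 of the 9 genes. At 1 week 35.7% of features were called (2343 higher and 4277 lower with TAA) and 0 of the 9 genes. At an unadjusted p under 0.05 there were 2 of the 9 genes, a smaller share than the 48.3% of all features. The nearest to a call were Fbn1 at −0.81 ± 0.25 (adjusted p = 0.0544) and Mfap4 at −0.72 ± 0.23 (adjusted p = 0.0575). At 2 weeks limma called 0% of features and 0 of the 9 genes (2093 and 3 at an unadjusted p under 0.05), and 7 of 9 genes lay above 0 with a median of 0.58 beside −0.08. Fbn1, Mfap4, Fbln5 and Emilin1 were thus below 0 at 1 week and above 0 at 2 weeks, and of these Fbn1 alone passed the interaction test. Fbln1 and Fbln2 had the opposite order of signs (0.60 and 0.28, then −0.62 and −0.07), with interactions that were not called. These comparisons share arrays with those between weeks and are not independent of them.

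With miR-29a none of the genes was called, and the matched pairs went both ways. Limma called 0 of 9 genes and 0% of features, with 525 features but 0 of the genes at an unadjusted p under 0.05, and the median was 0.09 for these genes beside 0.03 for all features. In the CCl4 1-week pair 7 of 9 genes were lower with miR-29a (median −0.38), whereas in the TAA 2-week pair 7 of 9 were higher (median 0.41). Of all features 46.3% were lower in the former pair and 47.4% higher in the latter. The NC array of the CCl4 1-week pair is the one rich in mesothelial markers. The other pairs had medians of 0.12 (CCl4 2 weeks) and 0.00 (TAA 1 week).

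Fbn1 was the one gene lower with miR-29a in 4 of 4 pairs. The differences were −0.37 and −0.75 under CCl4 (1 and 2 weeks) and −1.01 and −0.07 under TAA, with a mean of −0.55 ± 0.39 (limma, unadjusted p = 0.204, adjusted p = 1.00). The largest of the differences, 2.02-fold, rests on a miR-29a signal that was not well above background. Its level of −3.05 lay above the lowest called well above background on that array (−3.30). The 2.02-fold is thus the measured difference and not a lower limit. The scanner's spot error of these differences was 0.25 to 0.46, and in the TAA 2-week pair it was 0.26, larger than the difference.

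Fbln1 differed the other way in 3 of 4 pairs, by 0.30, 0.81 and, in the TAA 2-week pair, at least 1.83-fold, against −0.52 in the TAA 1-week pair. Its mean was 0.59 ± 0.42 (adjusted p = 1.00), and its other probe gave 0.11 ± 0.24. Fbln5 ran from −0.48 (CCl4 1 week) to 1.05 (TAA 1 week), Ltbp1 from −0.93 (CCl4 1 week) to 0.59 (TAA 2 weeks), and Mfap2 from −0.59 to 0.43. Tests of whether the miR-29a difference depended on agent or week called 0 of 9 genes and 0% of features, with 258 and 356 features but 0 of the genes at an unadjusted p under 0.05.

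**Figure D4:**
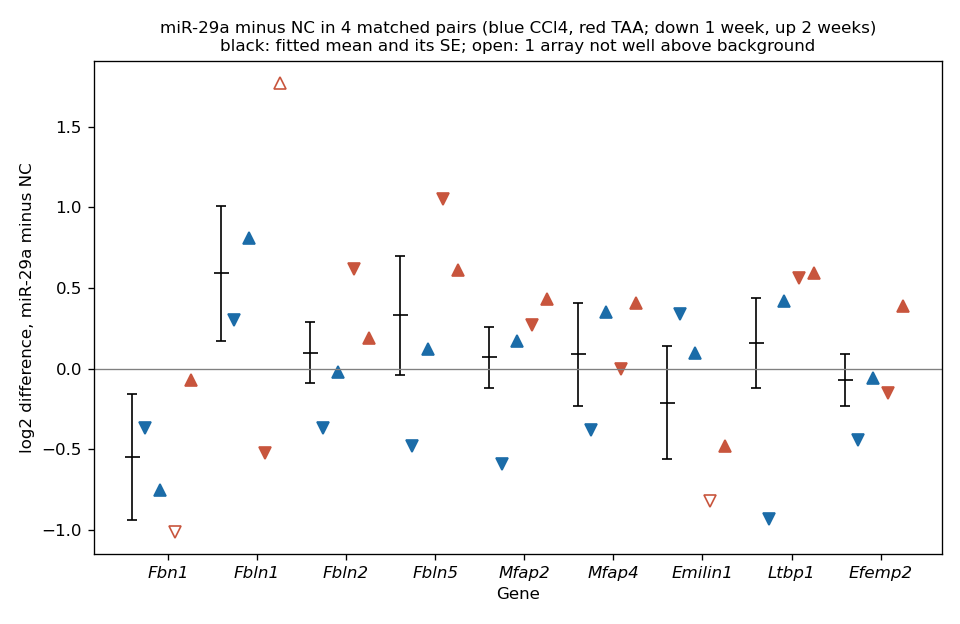
Log2 difference between miR-29a and NC for each gene in the 4 matched pairs, CCl4 in blue and TAA in red, pointing down for 1 week and up for 2 weeks, open where 1 array was not well above background. Black bars give the fitted mean and its SE. Fbn1 alone of these genes lies below 0 in all pairs, with a fitted mean that was not called. The SE bars of Fbln2, Fbln5, Mfap2, Mfap4, Emilin1, Ltbp1 and Efemp2 cross 0.

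The other genes of the elastic fibre system were read as counts from fixed lists. Elastin itself (Eln) was well above background on at most 1 array, as was the cross-linking enzyme Lox, and the elastase Mmp12 on 0. Of 21 further fibre and microfibril genes 17 were measured, and limma called 0 in the interaction (2 at an unadjusted p under 0.05), with a median of 0.52 beside 0.06 for all features. In that test 30.4% of all features reached an unadjusted p under 0.05, the share to set beside each unadjusted interaction count below. All 17 measured genes were below 0 between weeks under CCl4 (median −0.32), where Ltbp2 was at −1.35 ± 0.46 and Ltbp3 at −0.62 ± 0.18. Of these 0 were called (4 unadjusted, where 18.5% of all features were). In that fit 45.8% of all features were above 0. The mean of the list's centred log2 levels was 0.41 and −0.01 after CCl4 at 1 week (NC and miR-29a) and −0.25 and −0.18 at 2 weeks. The value of 0.41 is that of the array rich in mesothelial markers. Of 14 cross-linking and assembly genes 6 were measured and 0 called in the interaction (2 unadjusted). Loxl1, a lysyl oxidase of elastic fibres, had an interaction of 2.13 ± 0.62 (adjusted p = 0.0877), and Adamtsl2, which binds fibrillin 1, of 1.81 ± 0.45 (adjusted p = 0.0657).

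Among 17 genes of TGF-beta storage and microfibril-binding integrins 14 were measured and 0 were called in the interaction (2 unadjusted). Itga8, an integrin chain of stellate cells, fell by 1.33 ± 0.39 with TAA relative to CCl4 at 1 week (adjusted p = 0.0469), the sole call among the 14, where 35.7% of all features were called. Of 14 proteases that cut elastin or microfibrils 10 were measured and 1 was called in the interaction, near the 9.84% of all features. Mmp2, gelatinase A, was at −0.47 and −1.20 after CCl4 at 1 week, −2.01 and −2.22 at 2 weeks, −2.55 and −2.80 after TAA at 1 week, and −0.82 and −0.85 at 2 weeks. The signs between weeks were those of Fbn1, with an interaction of 3.11 ± 0.28 (limma, adjusted p = 0.0267). At 1 week Mmp2 and Ctsl, a cathepsin, were called lower with TAA (−1.84 ± 0.20 and −0.89 ± 0.13), and 0 proteases were called higher. Those 2 of 10 are a smaller share than the 35.7% of all features called there. Mmp2 was well above background on 1 of the 2 TAA 1-week arrays.

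Markers listed for cells that express these genes differed between some combinations as well. For portal and adventitial fibroblasts, 8 of 12 markers were measured, and their summed signal was 28.5 to 31.0 after CCl4 at 1 week, 22.2 to 23.7 at 2 weeks, 18.4 to 20.7 after TAA at 1 week and 24.6 to 26.3 at 2 weeks. These 4 ranges did not overlap, but each holds only an NC and a miR-29a array. How many of all features separate in this way was not counted, so the separation is no result about these cells. A sum follows its brightest genes, here Dpp4 and Gsn (levels of 3.57 and 3.20 on the CCl4 1-week NC array). Ogn and Dpt, at 0.02 and −0.50 there, add little to it. Whether the Dpp4 and Gsn signals came from these fibroblasts was not tested. In the fit 8 of 8 markers were below 0 between weeks under CCl4, and under TAA 4 of 8 were above 0. Of all features 45.8% were above 0 under CCl4 and 53.8% under TAA. The mean of the markers' centred log2 levels was 0.12 and −0.53 after TAA at 1 week (NC and miR-29a) and 0.02 and 0.00 at 2 weeks, so that the NC pair ran the other way from the sum. Of the 8 markers 3 were called in the interaction, where 9.84% of all features were, namely the matrix genes Ogn (2.80 ± 0.43) and Dpt and the peptidase Dpp4 (0.93 ± 0.20). At 1 week, where 35.7% of features were called, the same 3 were called lower with TAA and 1 other marker higher. Ogn was at −1.87 ± 0.30 and Dpp4 at −1.16 ± 0.14, and Dpt, not well above background on either TAA 1-week array, was at least 5.12-fold lower. In that comparison 2 of the 8 markers were above 0. Thy1 ran against the 3, with 1-week levels of −0.98 and −0.87 after CCl4 (NC and miR-29a) and of 0.41 and −0.35 after TAA. Gli1, Clec3b, Col15a1 and Slit2 were well above background on at most 1 array. The part of these cells in the differences was not tested.

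For activated stellate cells and myofibroblasts, 9 of 10 markers were measured, with summed signals of 43.6 to 71.7 and 29.6 to 29.8 after CCl4 (1 and 2 weeks) and of 42.7 to 46.0 and 30.4 to 34.3 after TAA. The sums were lower at 2 weeks under both agents. In the fit 9 of 9 markers were below 0 between weeks under CCl4 and 7 of 9 under TAA, and 0 were called in the interaction (1 unadjusted, median 0.28). Mesothelial markers summed to 3.15 to 19.5, 2.04 to 3.99, 2.05 to 3.41 and 2.95 to 6.83 in the same order, with Lrrn4 and Upk1b well above background on at most 1 array. Their interaction median was 2.28 with 0 of 7 called (2 unadjusted). Of 9 smooth muscle markers 3 were measured, with sums of 3.22 to 3.59, 3.43 to 3.44, 4.28 to 4.76 and 3.94 to 4.83, and Myh11 was well above background on at most 1 array. Other marker lists held positive interaction calls too, in a test that called 9.84% of all features. Among quiescent stellate markers 1 of 10 was called (Colec11, 1.23 ± 0.22), and among endothelial markers 1 of 8 measured (Lyve1, 1.42 ± 0.27). Among hepatocyte markers 1 of 10 was called (Cps1, 1.35 ± 0.22), and among pancreas markers 1 of 2 measured (Amy2a5, 1.78 ± 0.37). For cholangiocytes, macrophages, neutrophils and adipocytes 0 were called in the interaction. At 1 week, where 35.7% of all features were called, other lists than that of the portal fibroblasts also held markers called lower with TAA. These were 2 of 7 mesothelial, 2 of 8 endothelial, 2 of 2 pancreas and 1 of 10 hepatocyte markers. Of the 10 quiescent stellate markers 2 were called lower and 1 higher. The part of each of these cell types was not tested.

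Among themselves the 9 genes did not follow 1 course. Over the 8 arrays, which share agents, weeks and 1 slide, the 36 pairs of genes had Pearson r from −0.48 (Fbln2 with Emilin1) to 0.87 (Mfap2 with Efemp2), with a median of 0.37. Fbn1 and Emilin1 had r = 0.80, and 6 pairs were below 0. Against Col1a1, the main scar collagen, r was 0.82 for Mfap4, 0.70 for Fbln2, 0.39 for Fbn1 and 0.01 for Emilin1.

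The features most like each gene were sought among 16203 bright on every array, again over 8 arrays and as a description. For Fbn1 they were Vat1 (r = 0.964), Crtap, which helps collagen prolines to be hydroxylated (0.962), and Serpinb6a (0.955). For Fbln5 they were Htra1, a secreted serine protease, Gsn and Cpz (0.960, 0.954 and 0.954), and for Mfap4 Ltbp3, a latent TGF-beta binding protein (0.966), Tspan3 and Nampt (0.948 and 0.918). Selenom was closest to Mfap2 (0.984), Gstp3 to Emilin1 (0.959), Sox4 to Ltbp1 (0.935) and Teddm2 to Fbln2 (0.944). With so many features and 8 arrays, high values of r arise readily, and nothing on shared function is implied.

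The brightest probes lie on mm9 at chr2:125126727-125126786 (Fbn1), chr4:140571828-140571887 (Mfap2), chr11:61302147-61302206 (Mfap4), chr12:102988153-102988212 (Fbln5), chr6:91222118-91222177 (Fbln2) and chr19:5481762-5481821 (Efemp2). Those of Emilin1 and Ltbp1 lie at chr5:31222545-31223001 and chr17:75790530-75790589. The Fbln1 probes lie at chr15:85115998-85116057 (brightest) and chr15:85081927-85081986, and the Mfap5 probe at chr6:122478591-122478650. Fbn1 and Fbln5 are on the minus strand and the others on the plus strand. Whether a probe lies in coding sequence or in an untranslated region was not determined, since an annotation of that build was not used here.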

How the data were processed

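RNA of 8 mouse liver samples was measured on 8 one-colour (Cy3) arrays. Per the file headers, the authors obtained each spot's intensity with Agilent Feature Extraction 10.10.1.1, as a background-subtracted processed signal, with the mean and local background signals, a signal error and flags (0 or 1) beside it in the deposited files. The authors also deposited a table of log2 values, whose making the sources used here do not give. Its columns equalled the log2 processed signal minus 1 constant within 0.01 for 99.8% of probes, with column medians of −4.04, −4.07, −3.87 and −3.81 (CCl4) and −3.46, −3.47, −3.73 and −3.57 (TAA), in the order 1-week NC and miR-29a, 2-week NC and miR-29a. Scale and direction were thus known, and genes were not centred.

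Control and outlier spots were left out (24 of 55681 probes lost), spots of a probe averaged, and log2 signals scaled to the array's 75th percentile. A RefSeq table (GRCm38.p6) gave names to 27641 probes by accession, 3400 by symbol and 321 by older symbol, and 24295 kept the files' name. Probes well above background on 4 or more of 8 arrays were kept, and the brightest stood for its gene. Differences were fitted with limma 3.58.1 (R 4.3.3) with agent, week and oligonucleotide (4 residual degrees of freedom), and with an agent by week term (3). Calls used Benjamini-Hochberg adjustment over all features at 0.05. The fits were tested on simulated data. A bound uses the higher of a dim spot's signal and the lowest signal well above background on its array.

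The text names all members, list genes that were called or largest in a comparison and bright on all arrays, and the 3 features most like each member, in part. Elastin, Lox, Mmp12 and the markers under the filter, Col1a1 as a reference and the stated motifs were added after values were seen. Members and lists were chosen with earlier results of these data known. Alternatives covered background correction, scaling, filters, probes, the model and each array or pair left out.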

Additional observations from a re-analysis of the deposited data

Results flagged for a closer look

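Fbn1 was singled out because its difference between weeks depended on the agent by the test of that difference itself. The agent by week interaction was 1.76 ± 0.35 log2 (limma, adjusted p = 0.0431), from −1.04 under CCl4 and 0.72 under TAA. Over the alternatives the adjusted p ran from 0.0173 to 0.160, and the call was held by 6 of 16 of them. No combination had more than 1 array, so that none could be searched for an array far from its replicates.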

How the results depend on the processing

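Of the member differences recomputed, 190 of 204 kept their direction for miR-29a, 147 of 186 for TAA minus CCl4, 160 of 186 between weeks and 139 of 150 for the interaction. Signal over background limited Fbn1, Fbln1 and Emilin1, whose signals were dim on 1 array each. The cause of each change below was not tested.

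Features called in the interaction were 3418 with normexp, 3447 with array median scaling, 2935 with each probe as a feature and 0 with no filter (1823 in the main setting). In TAA minus CCl4 they were 6 with normexp, 5438 with array median scaling, 11 with quantile normalization, 6 with probes bright on all 8 arrays, 5029 with the agent by week term, 4344 without the CCl4 2-week pair and 5228 without the TAA 2-week pair, against 0. Between weeks they were 505 without the TAA 1-week pair, against 0. Members called in the interaction were 4 with array median scaling, 2 with a floor under dim signals (an alternative chosen after seeing the data, as were each probe as a feature and the oligonucleotide left out) and 0 with no filter, against 1.

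Under array median scaling TAA minus CCl4 turned to −0.11 (Efemp2), −0.16 (Emilin1), −0.28 (Fbln2), −0.32 (Fbn1) and −0.13 (Ltbp1), the interaction of Fbln2 to 0.05 and the week difference of Fbln5 to −0.01. With quantile normalization TAA minus CCl4 turned to −0.03 (Emilin1), −0.04 (Fbln2) and −0.20 (Fbn1), and the interaction of Efemp2 to −0.08. With normexp the week difference turned to −0.07 (Emilin1) and −0.01 (Fbln5), and the interaction to 0.01 (Fbln1) and −0.09 (Mfap2). A floor turned TAA minus CCl4 of Fbln1 to 0.22, and the mean of probes turned the interaction of Mfap2 to −0.23.

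With 1 array left out, the interaction ran from 0 to 2385 features, 0 to 1 members and a member median of −0.20 to 1.07, with Efemp2 at −0.25 to 0.35, Ltbp1 at −0.36 to 1.1 and Mfap2 at −0.27 to 0.61. The miR-29a difference ran from −0.19 to 0.03 (Efemp2), −0.53 to 0.12 (Emilin1), −0.07 to 0.27 (Fbln2), −0.03 to 0.70 (Fbln5), −0.04 to 0.26 (Mfap2) and −0.16 to 0.39 (Mfap4). TAA minus CCl4 ran from −0.03 to 0.56 (Emilin1), −0.44 to 0.44 (Fbln1), −0.07 to 0.19 (Fbln2), −0.38 to 0.25 (Fbln5), −0.27 to 0.41 (Fbn1) and −0.28 to 0.28 (Mfap4). The week difference ran from −0.28 to 0.37 (Emilin1), −0.35 to 0.38 (Fbln5), −0.50 to 0.11 (Fbn1) and −0.30 to 0.25 (Ltbp1).

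Without the CCl4 1-week pair the values that turned were 0.06 for miR-29a (Efemp2), −0.07, 0.58 and 0.68 for TAA minus CCl4 (Fbln2, Fbln5, Mfap4), and 0.72, 0.12 and 0.04 between weeks (Fbn1, Ltbp1, Mfap4). Without the CCl4 2-week pair they were −0.49, 0.60 and −0.81 for TAA minus CCl4 (Emilin1, Fbln1, Fbn1) and again 0.72, 0.12 and 0.04 between weeks. Without the TAA 1-week pair they were −0.07 for miR-29a (Fbln2), −0.07, 0.58 and 0.68 for TAA minus CCl4 (Fbln2, Fbln5, Mfap4) and −0.67 and −0.70 between weeks (Emilin1, Fbln5). Without the TAA 2-week pair they were −0.05 and −0.01 for miR-29a (Mfap2, Mfap4), −0.49, 0.60 and −0.81 for TAA minus CCl4 (Emilin1, Fbln1, Fbn1) and −0.67 and −0.70 between weeks (Emilin1, Fbln5). Leaving out a pair removes the interaction, which was then not fitted. All arrays shared 1 slide and 1 scan, so no block for these could be fitted, and with the matched combinations as a block the miR-29a comparison called 0 features and 0 members.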
